A study of Mus musculus with 6 samples.

Results

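The genes described here are those of the MHC class II system on a mouse lung array: the chain genes H2-Aa, H2-Ab1 and H2-Eb1, the invariant chain gene Cd74, the peptide-exchange genes H2-DMa, H2-DMb1, H2-DMb2 and H2-Ob, and the transactivator gene Ciita. All probes carrying one of these 9 symbols were taken, which gave 12 of the 25697 probes (9 of 18138 gene symbols). H2-Ab1 was selected on its large fall between the same hSRY-OFF and hSRY-ON arrays, and the other members by symbol, so the values of these genes are given as a description and are not tested. The study asked how activation of the human sex-determining gene SRY outside the gonad altered gene expression in male pups. Lung RNA of male FVB mice, taken on postnatal day 6, was hybridised to Illumina MouseRef-8 v2.0 BeadChips. There were 3 mice labelled hSRY-OFF and 3 labelled hSRY-ON, and each mouse had its own array.

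According to the study's methods, the mice designated hSRY-OFF carry an unrecombined Signalox-hSRY transgene, in which the ubiquitous CAG promoter drives the red fluorescent protein DsRed2 and human SRY is silent. In hSRY-ON mice, Cre protein from the oocyte of a Ddx4-Cre mother had removed DsRed2 in the early embryo, so that the CAG promoter drove FLAG-tagged human SRY together with EGFP. Elsewhere the study also takes littermates without that transgene as controls, and the labels give no genotype beyond the group names, so the status of the hSRY-OFF mice on the arrays rests on that designation. The hSRY-ON mice chosen for the arrays had not themselves inherited the Ddx4-Cre transgene. The transgene is a single-copy insertion at the H11 locus, so all hSRY-ON mice share 1 insertion site. The CAG promoter is not restricted to a lung cell type, so effects within class II cells cannot be told apart from effects of other cells or of the general state of the pups.

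MHC class II molecules are pairs of an alpha and a beta chain that present peptides from the endosome to CD4 T cells. Dendritic cells, B cells and macrophages carry most of them, and in lung alveolar type II epithelial cells are known to carry them too. New chains are escorted by the invariant chain (Cd74), endosomal proteases trim that chain to a short remnant, H2-DM exchanges the remnant for peptide, and H2-O inhibits H2-DM. Ciita is the coactivator that switches the whole set on. It does not bind DNA itself but is recruited to the X and Y boxes of the promoters by the RFX complex, CREB and NF-Y. FVB mice have the q haplotype of the MHC, which makes no I-E alpha chain.

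The promoter stretches below are printed to show the X and Y boxes, the elements through which Ciita acts on these genes. They come from RefSeq (GRCm38.p6, the C57BL/6J reference and not FVB) and run from 130 bases before the annotated start to the base just before it, 5′ to 3′ on the gene's strand. The capitals mark GCAAC, a core of the X box, and GATTGG, the Y box in the orientation bound by NF-Y. These motifs were chosen after the sequences had been seen.
H2-Aa (alpha chain of I-A), chr17:34287824-34287953, minus strand: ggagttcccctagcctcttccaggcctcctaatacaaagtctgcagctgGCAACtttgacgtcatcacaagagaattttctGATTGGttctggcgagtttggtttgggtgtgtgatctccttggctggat
H2-Eb1 (beta chain of I-E), chr17:34305737-34305866, plus strand: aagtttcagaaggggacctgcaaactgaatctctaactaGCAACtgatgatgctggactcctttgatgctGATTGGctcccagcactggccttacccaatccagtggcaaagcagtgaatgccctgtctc
H2-DMb1 (beta chain of H2-DM), chr17:34153061-34153190, plus strand: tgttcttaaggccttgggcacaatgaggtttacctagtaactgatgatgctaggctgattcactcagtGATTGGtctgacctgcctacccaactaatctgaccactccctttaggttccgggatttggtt
H2-Ob (beta chain of H2-O), chr17:34238775-34238904, plus strand: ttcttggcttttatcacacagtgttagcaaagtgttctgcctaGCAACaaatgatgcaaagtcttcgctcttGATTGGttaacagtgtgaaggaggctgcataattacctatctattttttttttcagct

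Promoter windows of 300 bases, from 250 before to 50 after the start, were found for 6 of the 9 genes. GCAAC followed on the same strand by GATTGG, with 10 to 40 bases between them, lay in H2-Aa (first bases at -81 and -49), H2-Eb1 (-91 and -60) and H2-Ob (-87 and -58). That spacing was present in 0.502% of all 32851 promoter windows searched on both strands. H2-DMb1 (-62), H2-DMb2 (-91) and H2-DMa (-199) held GATTGG on the sense strand without the X core at that spacing. For H2-DMa the match was in window 2, at a second annotated start, and its window 1 held no GATTGG on either strand. Of all windows, 16.1% held the Y box letters on either strand and 35.2% the X core. A match is a stretch of letters and says nothing of binding in these lungs. H2-Ab1, Cd74 and Ciita were without a window.

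The class II genes that could be measured were all lower in hSRY-ON lung. Probes of 6 genes passed the detection filter (a detection p under 0.05 on 3 or more arrays), with 3 probes for H2-Ab1, 2 for Cd74 and 1 each for H2-Eb1, H2-DMa, H2-DMb1 and Ciita. The median change of these 9 probes was -1.91 on the log2 scale, against -0.03 over all 13841 probes that passed. In 9 of 9 the hSRY-ON values lay below all hSRY-OFF values, where 24.1% of all probes tested did so, and 8 of 9 had a fitted change of -1 or below, where 4.49% did. All 9 were below 0, as were 53.2% of all probes. In the limma fit over all probes, 8 of the 9 were called lower at an adjusted p under 0.05, beside 13.3% of all probes called lower and 26.9% called in either direction. The gene that missed was H2-DMb1. The choice of the genes used this contrast, so nothing is read from these shares. When hSRY-OFF replicate 1, 2 or 3 was left out, the number of member probes called was 4, 3 or 4. When hSRY-ON replicate 1, 2 or 3 was left out, it was 5, 4 or 9. The share of all probes called lower ranged from 5.16% to 16.7% in the same fits. In whole lung, fewer cells of a type and less RNA per cell cannot be told apart.

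**Figure D1:**
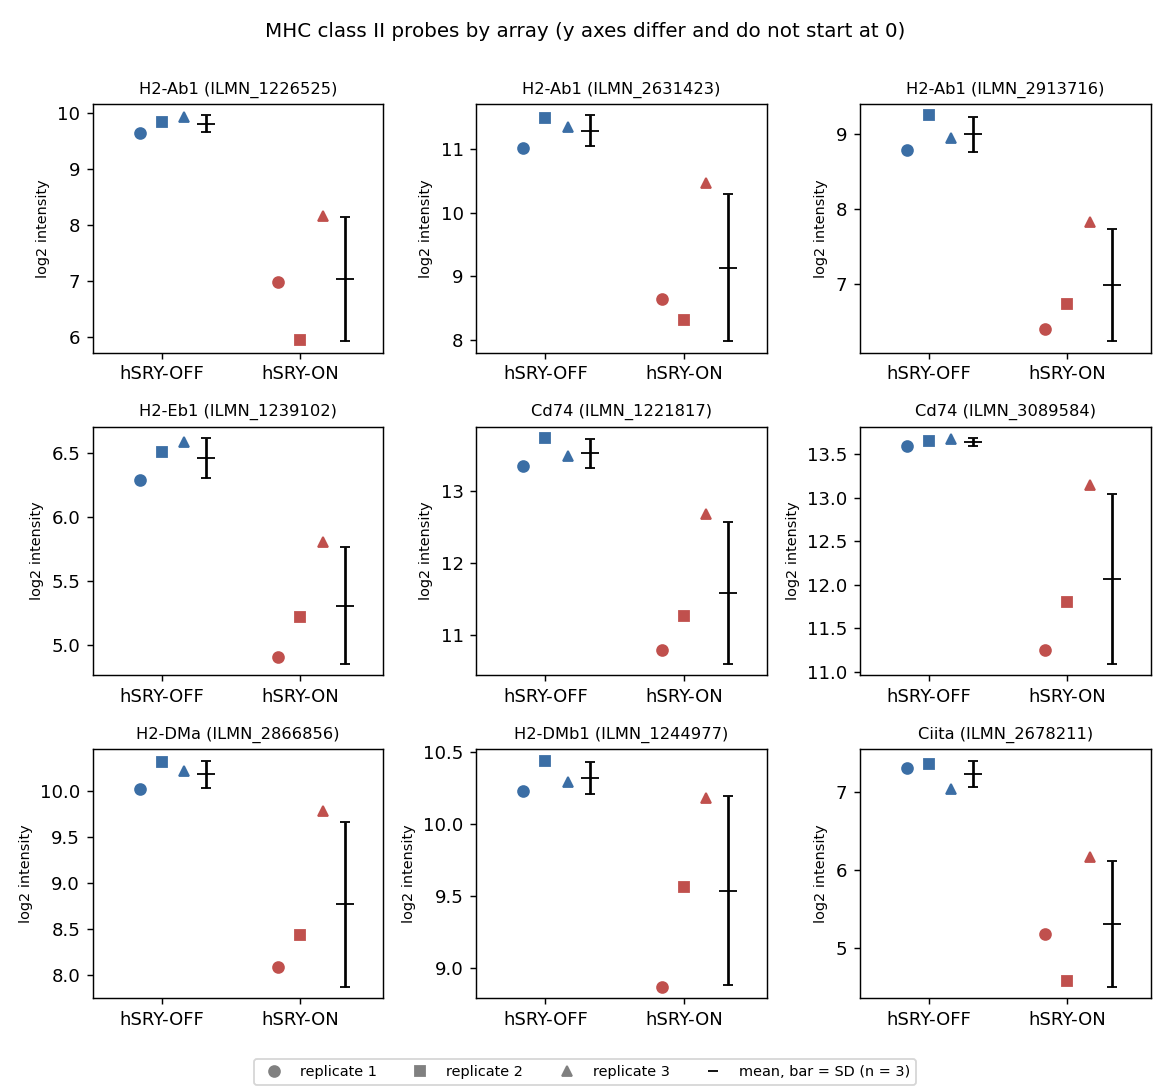
Normalized log2 intensity (vertical axis) of the 9 class II probes that passed the detection filter, with 1 point for each array and a bar at each group mean. The hSRY-ON points lie below the hSRY-OFF points for every probe, by as little as 0.05 for H2-DMb1, and are more widely spread.

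H2-Ab1 encodes the beta chain of I-A, the class II molecule that FVB mice display. Its probe ILMN_1226525 read 9.65, 9.85 and 9.94 in hSRY-OFF replicates 1, 2 and 3, and 6.98, 5.95 and 8.16 in hSRY-ON replicates 1, 2 and 3, on the log2 scale of normalized intensity used for all levels here. The groups were separated by 1.49 and the change was -2.78 (SE 0.49, 95% confidence interval -3.94 to -1.61), which is 6.86-fold lower. The distance from the hSRY-OFF mean was 14.5-fold for hSRY-ON replicate 2 but 3.14-fold for replicate 3. Without background correction the change of this probe was -1.87, so the size of these folds depends on the background step.

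The other probes of H2-Ab1 gave the same direction. Probe ILMN_2631423 read 11.02, 11.49 and 11.34 in hSRY-OFF and 8.64, 8.31 and 10.46 in hSRY-ON lungs, a change of -2.15 (SE 0.52). Probe ILMN_2913716 read 8.78, 9.25 and 8.96 in hSRY-OFF and 6.40, 6.74 and 7.83 in hSRY-ON lungs, a change of -2.01 (SE 0.36). In each probe hSRY-ON replicate 3 was the highest of its group and still lay below the lowest hSRY-OFF array. The 3 estimates, from 4.02-fold to 6.86-fold lower, lay within each other's confidence intervals. Those intervals come from the same 6 arrays and do not test whether the probes differ. Without background correction ILMN_2913716 had a change of -1.26.

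H2-Eb1 encodes the beta chain of I-E. Its probe, ILMN_1239102, read 6.29, 6.52 and 6.59 in hSRY-OFF and 4.90, 5.22 and 5.80 in hSRY-ON lungs. It was detected on all 3 hSRY-OFF arrays but on hSRY-ON replicate 3 alone of its group, so the low end lay at the background of the array. The change was -1.16 (SE 0.23), or 2.23-fold lower, and -0.36 when no background was subtracted. The probe of H2-Aa, which encodes the alpha chain of I-A, was not detected on any array, with 4.88 to 5.18 in hSRY-OFF and 4.56 to 4.76 in hSRY-ON lungs. Those values are within the background and carry no fold change.

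Cd74, the invariant chain that guides class II molecules to the endosome, was read by 2 bright probes. ILMN_1221817 gave 13.35, 13.74 and 13.49 in hSRY-OFF and 10.78, 11.27 and 12.69 in hSRY-ON lungs, a change of -1.95 (SE 0.45) or 3.86-fold lower. ILMN_3089584 gave 13.60, 13.65 and 13.68 in hSRY-OFF and 11.25, 11.80 and 13.15 in hSRY-ON lungs, a change of -1.58 (SE 0.44) or 2.98-fold lower. The hSRY-OFF arrays were within 0.08 of each other in the second probe, whereas the hSRY-ON arrays were spread more widely than the group means were apart. Replicate 1 was 5.25-fold below the hSRY-OFF mean there and replicate 3 was 1.41-fold below it.

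H2-DM, which is built from the products of H2-DMa and H2-DMb1 or H2-DMb2, loads peptide onto class II molecules. H2-DMa (ILMN_2866856) read 10.02, 10.31 and 10.22 in hSRY-OFF and 8.09, 8.43 and 9.78 in hSRY-ON lungs, a change of -1.42 (SE 0.41) or 2.67-fold lower. H2-DMb1 (ILMN_1244977) read 10.23, 10.44 and 10.29 in hSRY-OFF and 8.87, 9.56 and 10.19 in hSRY-ON lungs, a change of -0.78 (SE 0.31; 95% confidence interval -1.51 to -0.06). For H2-DMb1 the groups were 0.05 apart, since hSRY-ON replicate 3 all but reached the hSRY-OFF arrays. With that array left out the change was -1.10 and the probe was called, and without hSRY-ON replicate 1 it was -0.45 and was not. Neither H2-DMb2 nor H2-Ob was detected on any array. H2-DMb2 ranged from 4.48 to 4.64 in hSRY-OFF and from 4.44 to 4.74 in hSRY-ON lungs, and H2-Ob from 4.81 to 5.003 and from 4.56 to 4.98, so the groups overlapped in both.

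Ciita, the coactivator on which the class II promoters depend, was itself lower. Its probe ILMN_2678211 read 7.30, 7.35 and 7.03 in hSRY-OFF and 5.19, 4.58 and 6.17 in hSRY-ON lungs, a change of -1.91 (SE 0.37) or 3.76-fold lower. It was detected on 3 hSRY-OFF arrays and, in hSRY-ON lungs, on replicate 3 only. The size of the fall of so dim a probe rests on the background step, and without it the change was -0.72 with the same direction and call.

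The hSRY-ON arrays kept the same order in most class II probes. Replicate 3 was the highest of the hSRY-ON arrays in 9 of 9, where 34.6% of all probes tested and 55.4% of those called lower had their highest hSRY-ON value there. Replicate 1 was the lowest in 6 probes and replicate 2 in 3. The median distance of the 9 probes from the hSRY-OFF mean was -2.39 on replicate 1, -2.26 on replicate 2 and -0.82 on replicate 3. Over all probes called lower, the same medians were -0.77, -0.89 and -0.68, so replicate 3 stood less apart there. The median absolute distance over all probes tested was 0.34, 0.40 and 0.33. The standard deviation was larger in hSRY-ON than in hSRY-OFF lungs in 9 of 9, with a median ratio of 4.97 against 1.73 over all probes tested. Across the 6 arrays the 36 pairs of member probes correlated at 0.796 to 0.995 (Pearson, median 0.965), a description that reflects both the group difference and the shared order of the arrays.

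**Figure D2:**
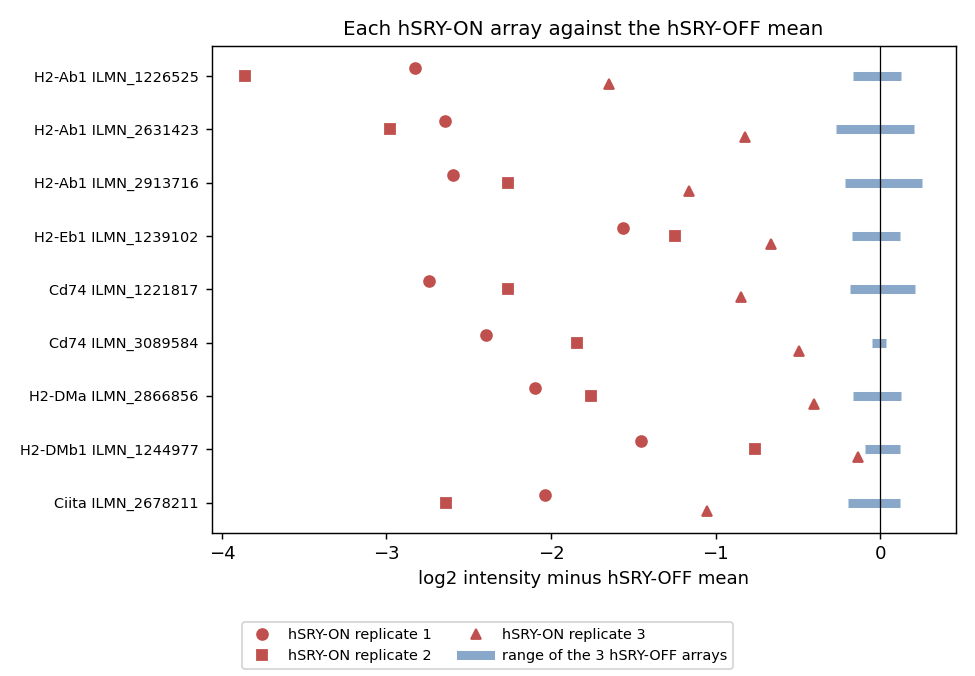
Distance of each hSRY-ON array from the hSRY-OFF mean (horizontal axis, log2 intensity) for the 9 class II probes that passed the filter, with the blue bar showing the range of the 3 hSRY-OFF arrays. Replicate 3 (triangles) lies closest to the hSRY-OFF arrays in every probe, from -0.14 for H2-DMb1 to -1.65 for H2-Ab1 probe ILMN_1226525.

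The arrays as a whole separated by group. Pearson correlations over the 13841 probes were 0.991 to 0.993 within hSRY-OFF, 0.972 to 0.980 within hSRY-ON and 0.935 to 0.959 between the groups, and 13191 to 14134 probes were detected on each array. The lung label was checked against 10 alveolar type II markers, all of which passed the filter. No probe was named for human SRY and that of mouse Sry was detected on 0 arrays, so activity of the transgene was not read. Precision is limited by having 3 arrays in each group.

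Most of the other genes of the class II pathway were not called. Of 48 genes in lists for regulators, interferon gamma signalling, endosomal processing, turnover, costimulation and the remaining class II chains, 35 passed the filter, 6 rose, 2 fell and the median change was 0.09, where 13.6% of all probes were called higher and 13.3% lower. These lists, like the others below, were compared in the same limma fit with p-values adjusted over all probes, with the brightest probe standing for each gene. The 6 and 2 became 2 and 1 without hSRY-OFF replicate 1 or replicate 2, and 3 and 1 without hSRY-OFF replicate 3. Without hSRY-ON replicate 2 they were 4 and 2 and the median was 0.02. They were 4 and 4 without background correction and 6 and 4 with the probes of a gene averaged.

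Among 14 measured regulators, 2 fell, 0 rose and the median change was -0.31. Nfya, a subunit of the NF-Y complex that binds the Y box, read 6.74, 6.44 and 6.20 in hSRY-OFF and 5.56, 5.11 and 5.11 in hSRY-ON lungs, a change of -1.20 (limma, adjusted p = 0.00620). Its groups did not overlap. Nfya was detected on 3 hSRY-OFF arrays but on 1 hSRY-ON array, so its low end lay at the background of the array. Without background correction its change was -0.37. Smarca4, a chromatin remodelling ATPase, had a change of -0.58 (adjusted p = 0.0327) and lost its call without any 1 of the hSRY-OFF arrays or without hSRY-ON replicate 2 (adjusted p up to 0.120). The RFX subunit genes showed no called change, with -0.43 for Rfxank (adjusted p = 0.309) and 0.03 for Rfxap (adjusted p = 0.895), while Rfx5 was not detected on any array. Irf1, an interferon-induced factor that acts on Ciita, had a change of -0.33 (adjusted p = 0.0855) in its brightest probe, although 2 of its other probes were called lower at -0.70 and -0.80. The number that fell was 1 in each fit without a hSRY-OFF array and 3 in the fits without hSRY-ON replicate 1 or 3, and 2 regulators rose without hSRY-ON replicate 1. It was 4 without background correction and also 4 with the probes of a gene averaged. The median was -0.20 without hSRY-ON replicate 2.

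Interferon gamma is the classical inducer of Ciita, and its gene Ifng was not detected on any array. Of 6 measured genes of its signalling, Ifngr1, the ligand-binding receptor chain, rose by 0.56 (limma, adjusted p = 0.0296) and 0 fell. That call was lost in 5 of the 6 fits that left out an array, all but the one without hSRY-ON replicate 3. Jak2, the kinase of the receptor, had 0.19 (adjusted p = 0.372).

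Of 9 measured endosomal genes that act on class II molecules or their antigens, 4 rose, 0 fell and the median change was 0.54. Ctsl, a cathepsin, read 7.43, 7.68 and 7.60 in hSRY-OFF and 8.37, 8.73 and 8.46 in hSRY-ON lungs, a change of 0.95 (limma, adjusted p = 0.00497), or 0.62 without background correction. Ifi30, a thiol reductase that opens disulfide bonds of antigens, had a change of 0.77 (adjusted p = 0.00675), and the groups did not overlap in either gene. Ctss, the main protease of the invariant chain in antigen-presenting cells, had 0.54 (adjusted p = 0.109) from dim values. The number that rose was 2 without hSRY-OFF replicate 1 or 2, and the median was 0.34 without hSRY-ON replicate 2. Of the 2 measured turnover genes, March1, a ubiquitin ligase that removes class II molecules from the surface, rose by 0.71 (adjusted p = 0.0239), a call lost without background correction (0.27) or without any 1 of the hSRY-OFF arrays. Cd83, which opposes March1, had 0.16 (adjusted p = 0.581).

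None of the 3 measured genes for costimulation and class II receptors was called by limma, and 1 was higher at an unadjusted p under 0.05. The changes were 0.66 for Cd86 (adjusted p = 0.103) and -0.28 for Cd40 (adjusted p = 0.306). The other probes had 0.68 and -0.13 for Cd86 and 0.25, 0.01 and 0.17 for Cd40, and none was called. Of the class II chain genes outside the members, H2-Oa, the alpha chain of H2-O, read 5.30, 5.35 and 5.58 in hSRY-OFF and 4.87, 5.52 and 5.88 in hSRY-ON lungs, with a change of 0.01 (adjusted p = 0.984) and overlapping groups. H2-Ea, the missing I-E alpha chain of this haplotype, and H2-Eb2 were not detected on any array.

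**Figure D3:**
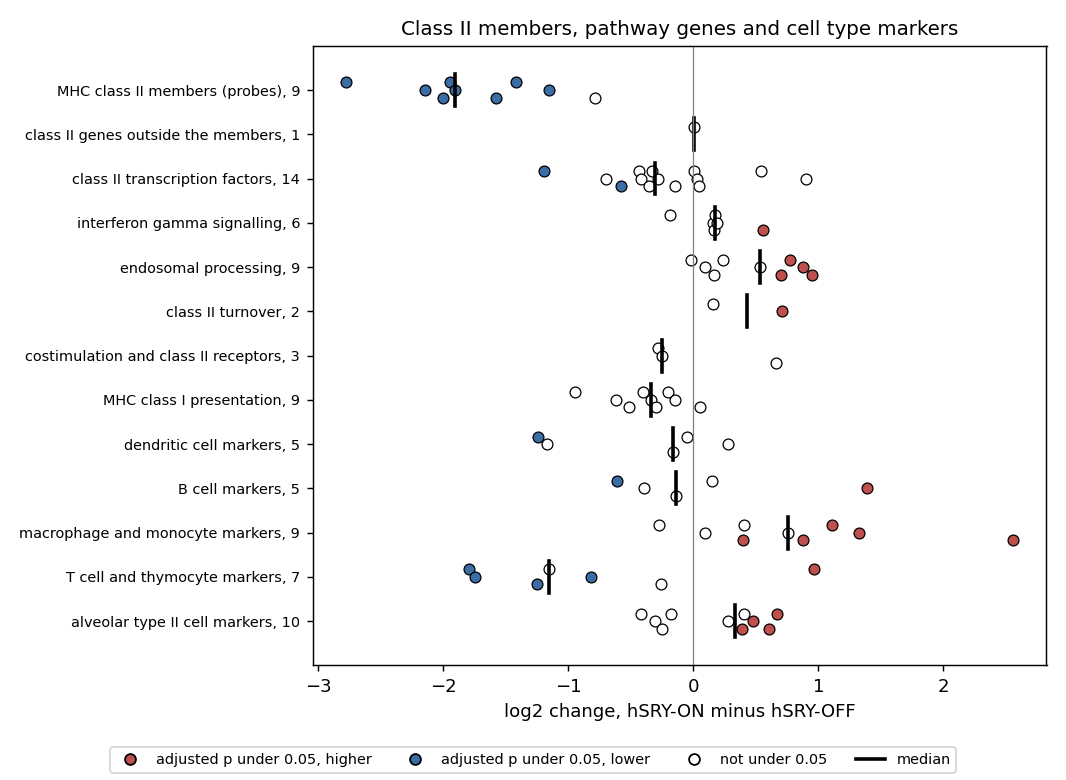
Change from hSRY-OFF to hSRY-ON lung (horizontal axis, log2) for the 9 class II member probes and for 1 probe per gene of each list, with the number measured after each name. Black bars are medians and filled points passed an adjusted p of 0.05 in limma. The class II members have a median of -1.91, against 0.09 for the 35 measured pathway genes as a whole.

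MHC class I genes, which present peptides from the cytosol and respond to many of the same signals, gave no called change in limma. Of 9 measured, 8 were below 0, 2 were lower at an unadjusted p under 0.05 and the median change was -0.34. H2-T23 had -0.95 (adjusted p = 0.0633), Psmb8 had -0.40 (adjusted p = 0.115) and B2m, the shared light chain, had -0.34 (adjusted p = 0.297). Without hSRY-ON replicate 3, 4 of the 9 were called lower and the median was -0.57. Without hSRY-ON replicate 2, 0 were called and the median was -0.15, and without hSRY-ON replicate 1, 1 of the 9 was called. In RefSeq the genes Psmb9, Tap1, Psmb8 and Tap2 stand between H2-DMb1 and H2-Ob, inside the class II cluster of chromosome 17. None of these 4 neighbours was called, 1 was lower at an unadjusted p under 0.05, and Psmb9 had -0.52 (adjusted p = 0.287). With hSRY-ON replicate 3 left out, 2 of the 4 were called lower. The 6 probes that passed the filter for the H2 members on either side of them all had lower values in hSRY-ON lung.

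Markers of the cells that carry class II molecules were examined next, and the part of any of them in the fall was not tested. Of 12 dendritic cell markers 7 were not detected on any array, among them the defining genes Itgax and Flt3. Of the 5 measured, 1 fell (2 without hSRY-ON replicate 3 and without background correction) and the median change was -0.16. That median was not stable, at -0.36 and 0.02 when hSRY-OFF replicate 1 or 2 was omitted and -0.10 and -0.49 when hSRY-ON replicate 2 or 3 was. Fscn1, an actin-bundling protein used as a marker of mature dendritic cells, had a change of -1.25 (limma, adjusted p = 0.00895). It read 11.12, 11.18 and 11.02 in hSRY-OFF and 9.43, 9.81 and 10.33 in hSRY-ON lungs. Batf3, a factor of cross-presenting dendritic cells, had -1.17 (adjusted p = 0.0502) and was called in 10 of 18 alternatives. It was detected on 3 hSRY-OFF arrays but on 1 hSRY-ON array, so its low end lay at background. Without background correction its change was -0.39. The remaining measured markers had changes from -0.16 to 0.27 and were not called. The summed level of the list, in log2, was 11.28 to 11.41 in hSRY-OFF and 9.999 to 10.87 in hSRY-ON lungs, a sum set mainly by Fscn1, and its highest hSRY-ON value was again on replicate 3.

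B cell markers gave no shared direction, with 1 that rose and 1 that fell of 5 measured. The fall was not called without background correction or without any 1 of the hSRY-OFF arrays, and the median change of -0.14 was -0.30 and 0.05 when hSRY-OFF replicate 1 or 3 was omitted and -0.05, -0.07 and -0.30 when hSRY-ON replicate 1, 2 or 3 was. Cd79a was not found on the array, and Ms4a1 and Pax5 were among 4 genes not detected on any array. Vpreb3, a gene of B cell precursors, rose by 1.39 (limma, adjusted p = 0.00126) with every hSRY-ON array above every hSRY-OFF array, or by 0.77 without background correction. The summed level was 9.30 to 9.81 in hSRY-OFF and 9.56 to 9.97 in hSRY-ON lungs, so the groups overlapped.

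Of 9 measured macrophage and monocyte markers, 5 rose, 0 fell and the median change was 0.75, although Ptprc, the common leukocyte gene, and 2 other markers were not detected on any array. Marco, a scavenger receptor of alveolar macrophages, read 5.24, 5.74 and 5.43 in hSRY-OFF and 8.70, 8.35 and 7.02 in hSRY-ON lungs, a change of 2.56 (limma, adjusted p = 0.00642). Mrc1, a mannose receptor, had 1.11 (adjusted p = 0.0105). The 4 measured markers that were not called had changes from -0.27 to 0.75, with 1 of them below 0. The summed level was 14.74 to 14.90 in hSRY-OFF and 15.29 to 15.52 in hSRY-ON lungs. That sum was set mainly by the brightest marker, at 14.36 to 14.51 in hSRY-OFF and 14.79 to 14.93 in hSRY-ON lungs. The number that rose was 2 without hSRY-OFF replicate 1 or 2, and 3 without hSRY-OFF replicate 3 or hSRY-ON replicate 2. Without background correction the change of Marco was 1.17.

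Of 7 measured T cell and thymocyte markers, 4 fell, 1 rose and the median change was -1.15. Cd3e, a chain of the T cell receptor complex, read 7.93, 8.03 and 7.91 in hSRY-OFF and 5.64, 5.95 and 7.04 in hSRY-ON lungs, a change of -1.75 (limma, adjusted p = 0.0112), or -0.83 without background correction. Cd1d1, a lipid-presenting class I-like gene, fell by 0.82 (adjusted p = 0.00644) and Thy1, which is also used by fibroblasts, rose by 0.97 (adjusted p = 0.00272). Cd8a, Rag1, Dntt and Foxn1 were not detected on any array. In 6 of the 7, hSRY-ON replicate 3 was the highest of its group, as in the class II probes, and the summed level was 11.33 to 11.49 in hSRY-OFF and 10.65 to 11.33 in hSRY-ON lungs. The number that fell was 2 when any 1 array other than hSRY-ON replicate 3 was left out, and 5 without that array.

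Alveolar type II cells, which also express class II genes, gave 4 genes that rose and 0 that fell of 10 measured, with a median change of 0.34 that was 0.06 without hSRY-ON replicate 1. The list was mixed, since 4 of the 10 had changes below 0, 1 of them at an unadjusted p under 0.05. The number called lower was 1 without background correction and 2 with a trended and robust variance model. Sftpb, a surfactant protein, rose by 0.67 (limma, adjusted p = 0.00800) and Abca3, a surfactant lipid transporter, by 0.60 (adjusted p = 0.00888), although a second Abca3 probe had -0.07 and the call was lost when probes were averaged. The summed level was 16.21 to 16.24 in hSRY-OFF and 16.48 to 16.56 in hSRY-ON lungs. The number that rose was 2 in each fit without a hSRY-OFF array or without hSRY-ON replicate 2.

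**Figure D4:**
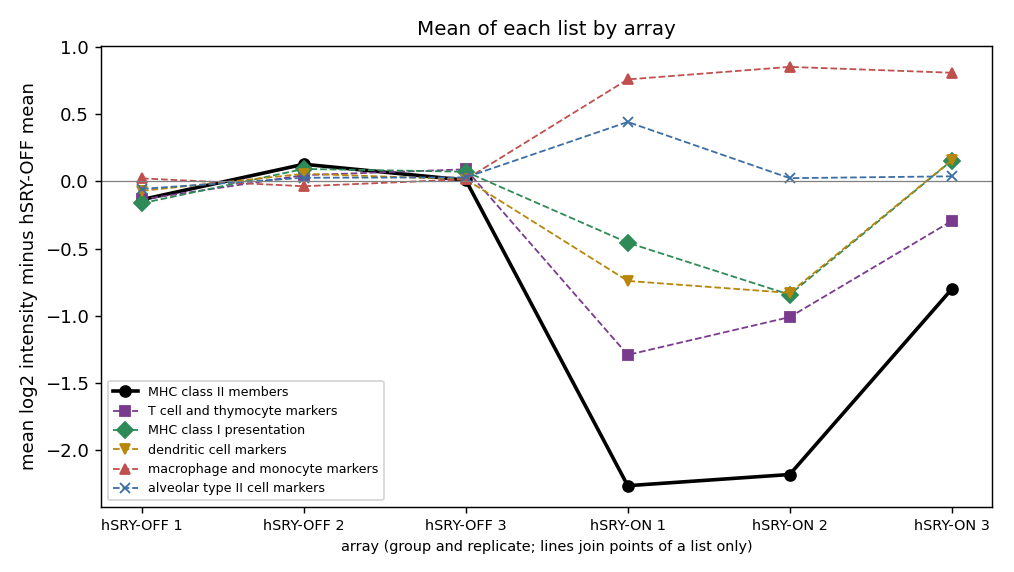
Mean distance from the hSRY-OFF mean (vertical axis, log2) of the class II member probes, of the T cell, dendritic cell, macrophage and type II cell marker lists and of the MHC class I list, for each of the 6 arrays, with lines joining the points of a list. The class II mean is -2.26, -2.18 and -0.80 on hSRY-ON replicates 1, 2 and 3, the T cell list has -1.29, -1.01 and -0.30, and on these arrays the macrophage list lies between 0.76 and 0.85.

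The mean distance from the hSRY-OFF mean on hSRY-ON replicates 1, 2 and 3 was -2.26, -2.18 and -0.80 for the class II probes, -1.29, -1.01 and -0.30 for the T cell list, and -0.74, -0.83 and 0.16 for the dendritic cell list. It was 0.03, -0.16 and 0.36 for the B cell list, 0.44, 0.02 and 0.04 for the type II cell list, and 0.76, 0.85 and 0.81 for the macrophage list. For the MHC class I list it was -0.46, -0.84 and 0.15. Of these hSRY-ON means, those of the class II probes and of the T cell, dendritic cell, B cell and MHC class I lists were thus all highest on replicate 3. The mean of the macrophage list differed little between the arrays, but its genes did not move together. Replicate 3 was the highest in 2 of the 9, and Marco had distances of 3.24, 2.89 and 1.55 on replicates 1, 2 and 3.

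Single genes with a profile like that of the class II genes were sought over all probes tested, by the distance between log2 values centred on each probe's mean over the 6 arrays. Nearest to H2-Ab1 (ILMN_2631423) was LOC641240, at 12.24, 12.45 and 12.47 in hSRY-OFF and 9.70, 9.47 and 11.56 in hSRY-ON lungs, with a distance of 0.21. It was followed by Nrcam (0.39), Mdk (0.53), Podxl2 (0.57) and 6330403K07Rik (0.59). Nearest to the mean profile of H2-Ab1, H2-Eb1 and Cd74 were the T cell gene Cd6 (0.25), Podxl2 (0.26), Unc5c (0.36), Htra1 (0.39) and Cd3e (0.40). Cd6 read 6.92, 7.11 and 7.15 in hSRY-OFF and 4.62, 4.87 and 6.02 in hSRY-ON lungs, with the highest hSRY-ON value on replicate 3. Its values on hSRY-ON replicates 1 and 2 lay below the lowest detected level of those arrays (5.46 and 5.40), within the background. These distances are a description over 6 arrays of 2 groups.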

How the data were processed

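RNA of 6 lungs was measured on Illumina BeadChips. The authors deposited bead intensities per probe, neither background-corrected nor normalized, and a detection p-value for each. How the beads were summarised is not given in the sources used here. The study describes its samples as biological triplicates. Its methods name TCC, made for counts, so the moderated linear model of limma (3.58.1, under R 4.3.3) took its place. Background was subtracted through the detection p-values (normexp), an offset of 16 was added, and arrays were quantile-normalized and log2-transformed, which compresses the changes of dim probes and removes shifts common to an array. The filter kept the 53.9% of probes whose detection p lay under 0.05 on 3 or more of the 6 arrays. The group difference was fitted by lmFit and eBayes with no covariate, with Benjamini-Hochberg adjustment over all kept probes and a threshold of 0.05. Fold changes are powers of 2 of fitted changes. The members and gene lists were chosen with earlier results of these data known. Named genes are all members, the 2 genes of smallest adjusted p in each list, a fixed set of key genes and the 5 nearest profiles, and 2 genes chosen by this rule are not reported here. Symbols were matched to RefSeq, synonyms included. Alternatives were other background corrections, normalizations, filters, variance models, thresholds and arrays left out. The scripts were tested on simulated data.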

Additional observations from a re-analysis of the deposited data

How the results depend on the processing

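The changes of the 9 member probes that passed the filter were below 0 in every alternative in which they were fitted (17 or 18 for each probe). No called list gene changed direction. H2-T23 and Irf1, not called here, were called lower in 6 and 4 of 19 alternatives. Between 3 and 9 member probes were called lower when 1 array was left out, and between 12 and 31 of the 80 list genes were called, against 8 and 25 in the analysis reported above. Averaging the probes of a gene gave 5 of 6 member genes, and an adjusted p under 0.01 left 2 member probes and 10 list genes. No pairing by replicate number was seen, with deviations of same-numbered arrays correlated at -0.11, 0.10 and -0.09. That check cannot tell whether arrays shared a litter or a chip. With the replicate number as a block 8 member probes were called lower, 13 list genes were called higher and 7 lower (17 and 8 without it), and 2655 of all probes were called against 3728. Without background correction the median change was -0.13 for regulators, 0.23 for endosomal genes, -0.17 for MHC class I genes, and -0.04, 0.40 and -0.73 for dendritic cell, macrophage and T cell markers. Probes with values near background, namely H2-Eb1, Ciita, Nfya, Batf3 and Marco, moved much with the background step, as did Cd3e and H2-Ab1 probe ILMN_1226525. The signal of H2-Aa, H2-DMb2 and H2-Ob was too low for a change to be measured.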
